A study of Mus musculus with 12 samples.

Results

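The interferon-stimulated and innate sensing genes described here are 40 genes of a given list, out of 31513 genes and unnamed loci in the transcript table of mouse testes (24516 with a gene symbol). A gene was the sum of its assembled transcripts that matched a reference transcript, lay within one, shared a splice junction with one or otherwise overlapped one. This gave 76 transcripts for the 40 genes, 65 that matched the reference and 11 that shared at least a junction with it. Testes came from wild-type C57BL/6 male mice in 4 groups of 3 mice, the youngest at 3 months (written 3M), then 6 (6M) and 12 (12M), and the oldest at 18 months (18M). The RNA was whole-testis total RNA depleted of ribosomal RNA, and the libraries carried no strand information. The methods do not say whether mice of an age were littermates, so p-values measure the spread between these mice. The comparisons ask how the genes change over the 4 ages, as a slope on age and as steps between ages. In whole tissue, fewer cells of a type and less RNA per cell cannot be told apart.

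Cells sense viral or misplaced nucleic acids with cytosolic receptors such as RIG-I (gene Ddx58), MDA5 (Ifih1), LGP2 (Dhx58), ZBP1 and the adaptor STING (Tmem173), which signal through IRF3 and IRF7 to type I interferon genes. Interferon then acts through its receptor on a factor that holds STAT2 and IRF9 and binds the interferon-stimulated response element (ISRE) of target genes, while interferon gamma acts on the gamma-activated site (GAS). The induced proteins degrade RNA, stop translation, block entry or budding of viruses, or attack vacuoles that hold pathogens. In the testis, Leydig cells, Sertoli cells and resident macrophages are known to mount such responses, whereas germ cells are generally held to respond weakly.

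Promoters of 7 members are shown first as examples, as the 250 bases before the RefSeq start on GRCm38.p6. Members not shown, among them Oas1a, Gbp5 and Gbp7, also held matches to both of the cores below. Capitals mark matches to the ISRE core GAAANNGAAA or the GAS core TTCNNNGAA on either strand, so that a match on the other strand reads TTTCNNTTTC for the ISRE core. Isg15, a ubiquitin-like modifier, lies at chr4:156200819-156201068 (minus strand), Ifit3, which binds viral RNA, at chr19:34583279-34583528 (plus strand), and Irgm1, a GTPase of vacuole defence, at chr11:48871421-48871670 (minus strand). Stat2 lies at chr10:128270248-128270497 (plus strand), Gbp2, a guanylate-binding protein, at chr3:142620413-142620662 (plus strand), Bst2 (tetherin), which holds budding virus at the membrane, at chr8:71537473-71537722 (minus strand), and Irf1 at chr11:53769764-53770013 (plus strand).
Isg15: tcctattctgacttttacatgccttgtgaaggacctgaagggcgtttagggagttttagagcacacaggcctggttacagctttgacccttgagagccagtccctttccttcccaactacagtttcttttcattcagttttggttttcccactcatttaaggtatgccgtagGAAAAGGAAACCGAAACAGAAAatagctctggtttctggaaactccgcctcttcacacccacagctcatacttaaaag
Ifit3: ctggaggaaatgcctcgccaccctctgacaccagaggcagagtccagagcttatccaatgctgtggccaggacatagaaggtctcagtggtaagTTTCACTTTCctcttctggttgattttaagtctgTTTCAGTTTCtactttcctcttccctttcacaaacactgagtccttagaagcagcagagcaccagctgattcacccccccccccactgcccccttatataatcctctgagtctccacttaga
Irgm1: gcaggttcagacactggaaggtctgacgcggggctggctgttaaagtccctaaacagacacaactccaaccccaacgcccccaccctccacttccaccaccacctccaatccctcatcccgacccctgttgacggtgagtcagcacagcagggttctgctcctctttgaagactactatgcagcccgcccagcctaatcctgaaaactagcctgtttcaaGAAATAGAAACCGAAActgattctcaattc
Stat2: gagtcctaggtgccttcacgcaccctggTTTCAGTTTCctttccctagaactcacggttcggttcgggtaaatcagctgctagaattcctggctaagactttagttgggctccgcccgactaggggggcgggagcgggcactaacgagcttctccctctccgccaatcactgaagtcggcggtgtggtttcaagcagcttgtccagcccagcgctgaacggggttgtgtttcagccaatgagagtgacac
Gbp2: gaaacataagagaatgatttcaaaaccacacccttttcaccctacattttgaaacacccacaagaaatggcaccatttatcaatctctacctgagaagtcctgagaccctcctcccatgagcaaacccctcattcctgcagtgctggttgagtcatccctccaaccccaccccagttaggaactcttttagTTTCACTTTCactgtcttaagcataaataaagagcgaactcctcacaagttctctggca
Bst2: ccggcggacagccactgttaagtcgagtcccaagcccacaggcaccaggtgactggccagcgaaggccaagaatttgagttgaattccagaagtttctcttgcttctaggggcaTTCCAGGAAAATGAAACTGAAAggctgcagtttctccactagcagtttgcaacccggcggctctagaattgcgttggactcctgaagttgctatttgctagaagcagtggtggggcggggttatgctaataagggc
Irf1: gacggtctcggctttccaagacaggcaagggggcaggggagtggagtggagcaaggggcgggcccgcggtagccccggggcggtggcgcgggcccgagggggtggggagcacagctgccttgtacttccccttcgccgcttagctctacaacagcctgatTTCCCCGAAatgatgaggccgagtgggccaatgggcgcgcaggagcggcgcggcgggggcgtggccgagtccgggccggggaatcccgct
In the Isg15 stretch 3 ISRE matches overlapped each other, beginning 78, 72 and 66 bases before the start. Ifit3 held matches at 156 and 122 bases, Irgm1 overlapping ones at 30 and 24, Stat2 1 at 222 and Gbp2 1 at 59. In Bst2 a GAS match at 136 bases overlapped the first of a pair of ISRE matches at 130 and 124, and Irf1 held 1 GAS match at 90 bases with no ISRE match.

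RefSeq promoters of 300 bases, 250 before and 50 after the start, were at hand for 32 of the 40 members. Among these, 19 (59.4%) held an ISRE core, against 3.99% of 27025 genes, and 10 (31.2%) held a GAS core, against 9.55% of the genes. No match to either core was found in 10 members. These are matches of letters and not measured binding.

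Library totals were 50924104 to 71803379 estimated reads, and normalization factors were 0.983 to 1.02. The testes showed the markers of their label, with summed spermatid markers at 12800 to 18780 CPM (reads scaled to the normalized size of the library) and Sertoli cell markers at 895 to 1191 CPM, while epididymis markers summed to 0.158 to 0.673 CPM with Lcn5 and Adam7 at 0 reads in the table. Marker sums of the pan-leukocyte list were 6.86 to 11.7 CPM, and those of Leydig cells 550 to 1322 CPM.

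Most members were weakly expressed. On the FPKM scale, which is per length and allows genes to be compared, 14 of the 40 averaged 1 FPKM or more over the 12 testes and 26 less, whereas 54.6% of all genes with a symbol reached 1 FPKM. Irf3, the factor that first turns on interferon genes, was highest at 19.1 FPKM, and its lowest library lay above the highest library of the next gene. It was followed by Dhx58, the regulatory RNA sensor LGP2, at 10.3, by Ifi27, a small induced membrane protein, at 8.99, by Xaf1, a proapoptotic induced gene, at 8.76, and by Ifitm2 and Ifitm3, which block viral entry at membranes, at 6.43 and 4.6 FPKM. Eif2ak2, the kinase PKR that halts translation on double-stranded RNA, stood at 4.28 and Bst2 at 3.46 FPKM. From Dhx58 to Bst2 the libraries of each gene overlapped those of the next, so that adjacent places were not set apart by range. Genes further apart in this order could be, as Ifi27 (7.25 to 13.8 FPKM) and Bst2 (2.73 to 5.67 FPKM) were. Bst2 was set apart from the next gene, Stat2 at 1.55 FPKM, with no overlap of libraries. Of the reads summed as Irf3, 95.0% were in assembled transcripts that shared a junction with the reference without matching it. The reference forms NM_016849 and NR_045611 held 3.34% and 1.71%. In MSTRG.18275.5, with 37.8% of the reads, an exon ran through an intron of the reference.

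**Figure D1:**
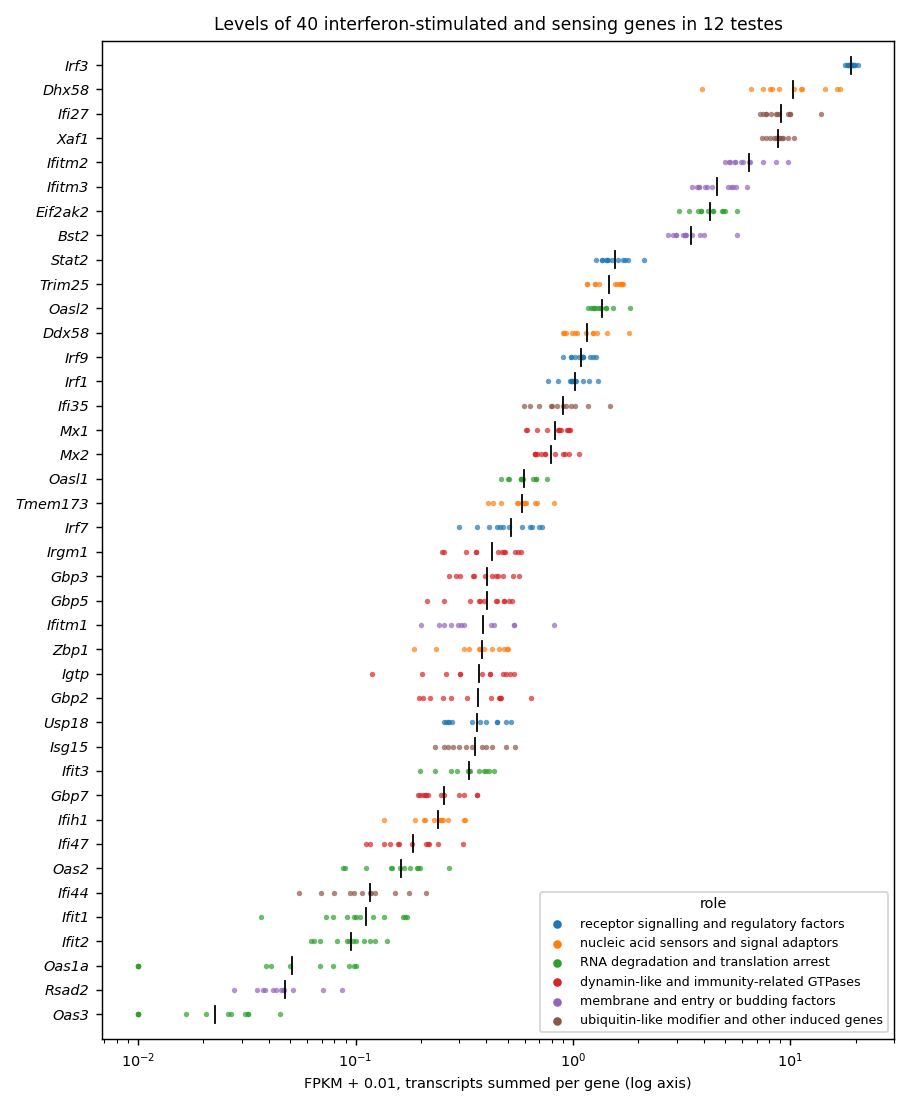
FPKM of each of the 40 genes in each of the 12 testes, on a log axis after adding 0.01, coloured by role and ordered by the mean (black tick). Irf3 stands alone at the top at a mean of 19.1 FPKM, 14 genes reach a mean of 1 FPKM, and Oas1a and Oas3 at the bottom are listed at 0 in 4 libraries each.

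The Ifit genes, Oas1a, Oas2, Oas3 and Rsad2 were among the 11 genes at the bottom of the order, while other effectors such as Ifitm3, Eif2ak2 and Bst2 stood in its upper part. Ifit3, Ifit1 and Ifit2, which bind foreign or uncapped RNA, averaged 0.324, 0.102 and 0.0857 FPKM, and Rsad2 (viperin), which makes a chain-terminating nucleotide, 0.0376 FPKM. Of the oligoadenylate synthetases, which activate RNase L, Oas2 averaged 0.152, Oas1a 0.0408 and Oas3 0.0125 FPKM, and 62 and 46 estimated reads were assigned to Oas1a and Oas3 over all 12 libraries. Their relatives Oasl2 and Oasl1 stood higher, at 1.35 and 0.586 FPKM. Isg15 averaged 0.343 FPKM with 11 to 24 reads a library, Usp18, the protease that removes ISG15, 0.352, and Irf7, the amplifier of the response, 0.511 FPKM. Counting error is therefore large for the Ifit, Oas, Rsad2 and Isg15 values.

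The values of 2 members included reads of a neighbouring gene, which made up most of those of Xaf1 and the smaller part of those of Ddx58. Transcripts that joined Xaf1 on chromosome 11 to its downstream neighbour Fbxo39 held 98.0% of the reads summed as Xaf1, and 88.4% of the covered bases lay in exons of Fbxo39 alone. In the joined transcript MSTRG.3133.1 the 6 exons of Xaf1 had mean coverages of 3.05 to 4.56, while the 3 exons of Fbxo39 had 71.2, 134 and 79.2. Counting the exons of Xaf1 alone left 11.6% of its reads and 5.04 to 6.90 CPM a library, in place of 41.3 to 61.5 CPM. For Ddx58 on chromosome 4, a transcript with added exons of Topors held 85.8% of the reads, 30.1% of the covered bases lay in exons of neighbouring genes, and the exons of Ddx58 alone gave 5.14 to 7.38 CPM. The place of both genes in the order of FPKM therefore includes reads of their neighbours.

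Dhx58 showed another kind of uneven coverage. Its assembled transcript MSTRG.3620.1 of 12 exons, with 85.9% of the reads, had mean coverages of 51.3 to 81.3 in the exons after the first, and 8.06 in the first exon, which joins both upstream exons of the reference form. The reference form NM_030150 likewise had 0.416 in its first exon, 3.96 in the next and 7.92 to 13.3 in the rest. An antisense gene, Dhx58os, overlapped 6.81% of the covered bases of Dhx58, and without strand information its reads cannot be told apart from those of Dhx58. In Ifitm2, 44.5% of the covered bases were shared with Gm45717 on the same strand, in Ifi35, a binding partner of Nmi, 16.4% with the antisense gene Gm11626, and in Gbp7 13.9% with the pseudogene Gm43802. These members are uncertain to that extent, and reads of close paralogues in the Ifit, Gbp, Ifitm, Oas and immunity-related GTPase families may also be split between genes.

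**Figure D2:**
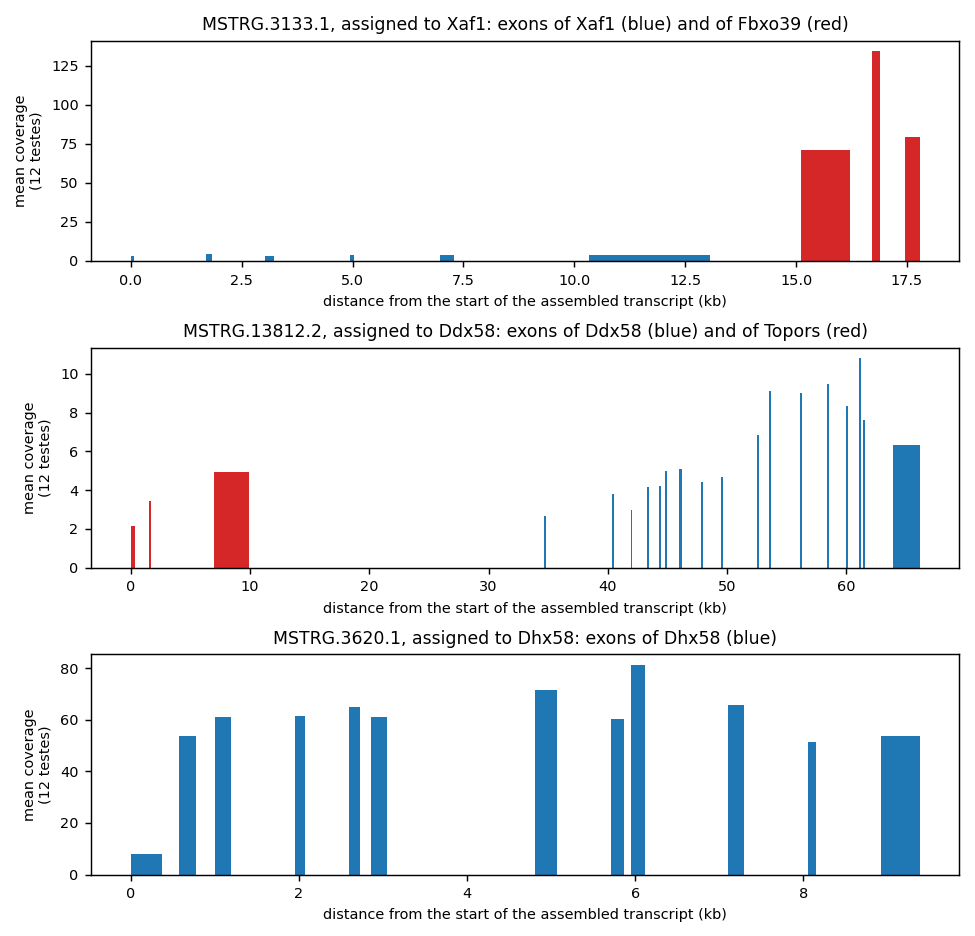
Mean read coverage over the 12 testes of each exon of assembled transcripts assigned to Xaf1, Ddx58 and Dhx58, against the distance in kb from the transcript's start (narrow exons of Ddx58 and Xaf1 are widened to stay visible). Exons of Fbxo39 (71.2 to 134) tower over those of Xaf1 (3.05 to 4.56), exons of Topors come first in the Ddx58 transcript, and the first exon of Dhx58 is at 8.06 against 51.3 or more in the others.

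On the slope over age in months, tested with edgeR's quasi-likelihood test, 0 of the 38 members with enough reads were called at an adjusted p of 0.05, where 0.171% of 25204 genes and loci were called. Oas1a and Oas3 did not pass the filter on low counts. At an unadjusted p of 0.05, 1 member rose (7.16% of all genes did) and 7 fell (8.2% of all did), together 8 of 38 or 21.1% against 15.4% of all. The signs leaned downward, with 30 of the 38 slopes negative and a median of -0.0148 log2 units per month, against a median of 2e-04 and 50.6% positive slopes over all genes tested. Leaving out each mouse in turn gave medians of -0.018 to -0.0117. DESeq2 called 1 member (Irgm1) of the 31 to which it gave an adjusted p, or 3.23% against 2.54% of all genes, and limma on FPKM called 0. In the test of any difference between the ages 0 members were called, against 0.0794% of all, and 5 passed at an unadjusted p, or 13.2% against 9.04% of all. DESeq2 called 1 of 37 members there, Ifi27, or 2.7% against 2.66% of all genes, and limma 0. Both DESeq2 shares lay near those of all genes.

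**Figure D3:**
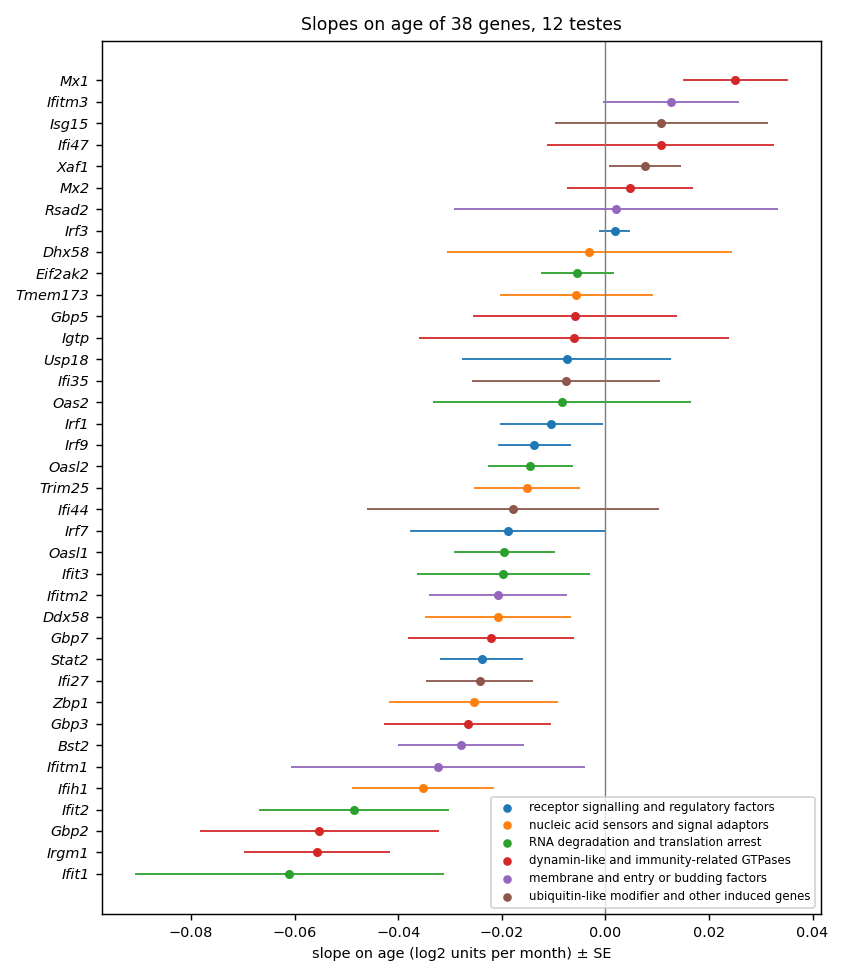
Slope on age of 38 genes in log2 units per month of age with its standard error, from the fit over 12 testes, coloured by role and ordered by size. Mx1 has the highest slope at 0.0251 and Ifit1 the lowest at -0.061, and 30 of the 38 points lie left of 0.

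Among receptor signalling and regulatory factors, 5 of 6 members had negative slopes. Stat2, which joins IRF9 in the factor that binds the ISRE, was at 7.98, 8.35 and 6.74 CPM at 3M, 8.1, 7.55 and 9.73 at 6M, 6.37, 6.86 and 6.53 at 12M, and 7.02, 5.94 and 6.34 at 18M. Every 12M mouse lay below every 6M mouse, and the 18M mice overlapped those at 3M. The slope was -0.0239 ± 0.00804 (SE, adjusted p = 0.214). Its partner Irf9 was 2.97 ± 0.336, 3.16 ± 0.167, 2.74 ± 0.299 and 2.68 ± 0.13 CPM (mean ± SD, n = 3 at each age) from 3M to 18M, a slope of -0.0137 ± 0.00707. Irf3 varied least, between 41.2 and 46.9 CPM in the 12 testes, with a slope of 0.0018 ± 0.003 (SE). Irf1, the factor of the interferon gamma branch, ranged from 1.75 to 2.95 CPM and Irf7 from 0.571 to 1.41 CPM, with the mice of all ages intermixed, and Usp18 from 0.473 to 0.971 CPM.

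All 6 nucleic acid sensors and signal adaptors had negative slopes, and none passed the test (adjusted p from 0.262 to 0.972). Ifih1, the sensor of long double-stranded RNA, was at 1.37, 1.42 and 1.53 CPM at 3M, 1.81, 1.31 and 1.81 at 6M, 1.19, 1.22 and 1.39 at 12M, and 1.41, 0.738 and 1.07 at 18M, a slope of -0.0352 ± 0.0137 (SE). All groups overlapped with their neighbours in age, and the low 18M mean rested on mice 2 and 3. Dhx58 was the most variable of the abundant members, at 21.6, 19.8 and 22 CPM at 3M, 30.3, 44 and 44.5 at 6M, 23.5, 28.1 and 10.3 at 12M, and 17.4, 30.1 and 38.6 at 18M. The 3M mice were close together, the 6M mice all lay above every 3M mouse and every 12M mouse, and the 18M mice overlapped every other age. The DNA-signalling adaptor Tmem173 ranged from 0.992 to 2 CPM, the Z-form nucleic acid sensor Zbp1 from 0.375 to 0.867 CPM, and Trim25, the ligase that activates RIG-I, from 6.75 to 10.1 CPM. On its own exons Ddx58 had a slope of -0.0013 ± 0.00718 (SE), against -0.0207 ± 0.014 with the exons of Topors.

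Of the genes of RNA degradation and translation arrest, 7 of 9 had enough reads, and all 7 slopes were negative. Ifit2 was at 0.439, 0.386 and 0.469 CPM at 3M, 0.552, 0.475 and 0.316 at 6M, 0.39, 0.224 and 0.348 at 12M, and 0.23, 0.246 and 0.348 at 18M, a slope of -0.0485 ± 0.0183 (SE, adjusted p = 0.249). The 18M mice lay below every 3M mouse. Ifit1 was at 0.458, 0.246 and 0.313 CPM at 3M, 0.276, 0.456 and 0.246 at 6M, 0.356, 0.448 and 0.253 at 12M, and 0.194, 0.0757 and 0.195 at 18M. All 18M mice were below all other mice, on 4 to 24 reads a library, and the step from 12M to 18M was -1.14 ± 0.449 on the log2 scale (SE, adjusted p = 1). Ifit3 ranged from 0.414 to 0.896 CPM with the ages intermixed. Oasl2 and Oasl1 had slopes of -0.0145 ± 0.00818 and -0.0195 ± 0.00981 (SE), Oas2 of -0.0084 ± 0.0249, and Eif2ak2, at 13.3 to 19.9 CPM, of -0.0054 ± 0.00708.

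The dynamin-like and immunity-related GTPases held the highest slope of the set, that of Mx1, and 3 of their 9 slopes were positive. Irgm1 was at 1.11, 1.26 and 1.32 CPM at 3M, 1.14, 0.832 and 1.33 at 6M, 0.745, 1.14 and 1.04 at 12M, and 0.831, 0.586 and 0.584 at 18M. The 18M mice lay below every 3M mouse, with a difference of -0.88 ± 0.21 on the log2 scale (SE, adjusted p = 0.349) and a slope of -0.0557 ± 0.0141 (adjusted p = 0.138), the smallest p among the members. DESeq2, the alternative test, called this slope at an adjusted p of 0.0346. Gbp2 was at 0.84, 1.18 and 1.08 CPM at 3M, 1.2, 1.21 and 1.63 at 6M, 0.644, 0.71 and 0.553 at 12M, and 1.18, 0.511 and 0.487 at 18M. Its 12M mice lay below every mouse at 3M and 6M, and mouse 18M-1 stood at the level of the young mice while the other two at 18M did not.

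Mx1, of the dynamin-like GTPase family, went the other way in its RNA. Whether a working protein is made in these mice was not measured. The RNA of Mx1 was at 1.81, 2.02 and 1.81 CPM at 3M, 2.27, 2.54 and 2.79 at 6M, 2.9, 2.82 and 2.77 at 12M, and 2.6, 2.53 and 2.56 at 18M. The 3M mice lay below all 9 older mice, and the difference of 18M from 3M was 0.45 ± 0.11 on the log2 scale (SE, adjusted p = 0.351), with a slope of 0.0251 ± 0.0102 (adjusted p = 0.274). Mx2, its neighbour on chromosome 16, had a slope of 0.0048 ± 0.0121, with the 3M mice at 1.72 to 1.9 CPM and the older ones at 1.7 to 2.75. All 1395 reads of Mx2 were assigned to the noncoding reference form NR_003508. Gbp3, Gbp5 and Gbp7 had slopes of -0.0266 ± 0.0161, -0.0059 ± 0.0197 and -0.0221 ± 0.0161, and the immunity-related GTPases Igtp and Ifi47 of -0.006 ± 0.0299 and 0.0107 ± 0.0219 (SE).

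Membrane and entry or budding factors had 3 negative and 2 positive slopes. Bst2 was at 2.67, 2.88 and 3.28 CPM at 3M, 3.15, 2.61 and 4.59 at 6M, 2.44, 2.73 and 2.4 at 12M, and 2.7, 2.35 and 2.25 at 18M, a slope of -0.0279 ± 0.0122 (SE, adjusted p = 0.304). Mouse 6M-3 stood above all others, and the remaining ages overlapped. Ifitm2 and Ifitm1 had slopes of -0.0207 ± 0.0134 and -0.0323 ± 0.0284, and Ifitm3 of 0.0127 ± 0.0131 (SE). Rsad2, with 4 to 16 reads a library, had a slope of 0.0021 ± 0.0313.

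Of the remaining induced genes, 3 of 5 had negative slopes. Ifi27 was at 9.73, 10.1 and 10.8 CPM at 3M, 11.6, 11.2 and 15.3 at 6M, 8.3, 8.97 and 9.13 at 12M, and 9.6, 8.6 and 8.9 at 18M. All 6 mice at 12M and 18M lay below all 6 at 3M and 6M, which was seen in 1 of the 38 members and in 1.1% of all genes tested, and the reverse was seen in 0 members and 0.797% of all. Its slope was -0.0243 ± 0.0103 (SE, adjusted p = 0.294), and in the test of any difference between the ages its adjusted p was 0.361 with edgeR and 0.00221 with DESeq2. Isg15 was between 0.19 and 0.422 CPM and Ifi35 between 0.851 and 2.11 CPM, with slopes of 0.0108 ± 0.0206 and -0.0076 ± 0.0181 (SE). Ifi44 was lowest in mouse 18M-1 at 0.141 and highest in mouse 18M-2 at 0.624 CPM, so that 1 age held both extremes. On its own exons Xaf1 had a slope of 0.0011 ± 0.00794 (SE), against 0.0077 ± 0.00693 with those of Fbxo39.

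**Figure D4:**
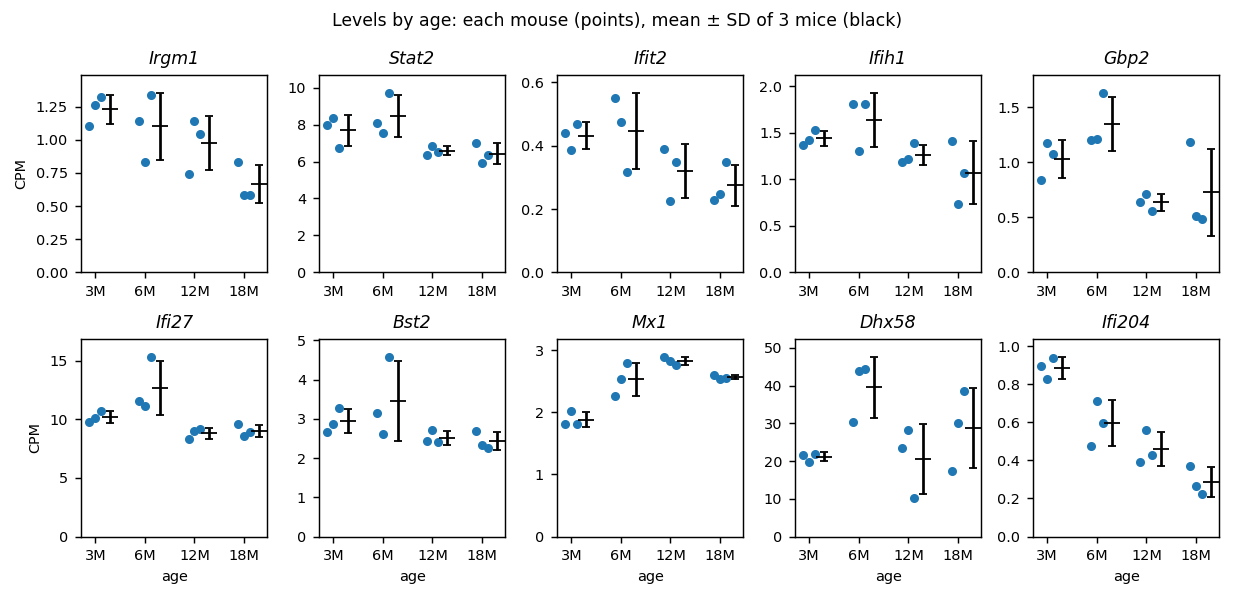
CPM of 9 members and of Ifi204 in each mouse (points) by age, with the mean and SD of 3 mice (black), each panel from 0. Irgm1, Ifit2 and Ifi204 are lowest at 18M, Ifi27 and Stat2 are lower at 12M and 18M than at 6M, Mx1 is lowest at 3M, and Dhx58 is highest at 6M.

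Step by step, the members leaned up from 3M to 6M and down from 6M to 12M. From 3M to 6M, 26 of 37 members with enough reads were higher and 11 lower, with a median of 0.14 on the log2 scale (0.0023 over all genes). Calls between ages also needed a log2 change of 1 in size, and 0 members were called against 0.0611% of all, with 0 also by DESeq2 and by limma on FPKM. Without the fold limit 2 members passed at an unadjusted p of 0.05, both higher, or 5.41% against 3.94% of all genes. Dhx58 was higher by 0.90 ± 0.15 on the log2 scale (SE, adjusted p = 0.429), under the fold limit, with 1.94e-07 as its adjusted p in DESeq2. Without mouse 6M-1 its difference was 1.06 (adjusted p = 0.0117 with edgeR), and the share of all genes called in that fit is not given here. On leaving out any other mouse its adjusted p was 0.654 to 0.89. Mx1 was higher by 0.43 ± 0.13 (adjusted p = 0.99). The mice did not overlap in 4 members that were higher at 6M (Dhx58, Mx1, Gbp2 and Ifi27), or 10.5% against 5.11% of all genes, and in 1 that was lower (Ifi44), or 2.63% against 4.36%. Without mouse 6M-3 the lean shrank to 21 higher and 16 lower and a median of 0.049.

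From 6M to 12M, 31 of 37 members were lower and 6 higher, with a median of -0.20 against -0.0037 over all genes, and without mouse 6M-3 28 were lower and 10 higher with a median of -0.16. No member was called (0.0325% of all were), 0 with DESeq2 and 0 with limma. At an unadjusted p without the fold limit 6 members passed, or 16.2% against 7.49% of all. With the fold limit 2 members passed at an unadjusted p, both lower, against 0.443% of all, namely Gbp2 at -1.09 ± 0.21 (adjusted p = 0.446) and Ifitm1 at -1.12 ± 0.44 (SE, adjusted p = 0.666). Ifitm1, which blocks entry at the cell surface, was at 0.394, 0.614 and 0.228 CPM at 6M and 0.169, 0.187 and 0.205 at 12M. The mice did not overlap in 7 members that were lower at 12M, or 18.4% against 7.35% of all, which were Irf9, Stat2, Dhx58, Eif2ak2, Gbp2, Ifitm1 and Ifi27. In 1 member, Gbp5, they did not overlap in the other direction, against 7.54% of all, with 1.24, 1.17 and 1.16 CPM at 6M and 1.68, 1.46 and 1.5 at 12M. Since both steps share the 6M mice, their values are given side by side and the one is not independent of the other.

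From 12M to 18M the members did not lean far, with 14 higher and 23 lower and a median of -0.034 (0.0017 over all genes), and without mouse 18M-2 they were 21 higher and 18 lower. No member was called (0.0203% of all), 0 with DESeq2 and 0 with limma, and 1 passed at an unadjusted p with the fold limit (0.308% of all were lower), which was Ifit1 and was also the 1 that passed without it (3.57% of all). No overlap was seen in Isg15, higher at 18M (4.59% of all genes), and in Ifit1, Mx1 and Gbp5, lower at 18M (7.89% against 4.42% of all). Between 3M and 18M, 25 of 37 members were lower and 12 higher with a median of -0.15 (0.0063 over all), and 0 were called against 0.0528% of all, 0 with DESeq2 and 0 with limma. Without the fold limit 3 passed at an unadjusted p, or 8.11% against 12.0% of all genes, which were Irgm1 (lower) and Mx1 and Xaf1 (higher). Xaf1 was among them at 0.20 ± 0.071 (SE, adjusted p = 0.378), but at 0.11 ± 0.086 (adjusted p = 0.629) on its own exons. The 18M mice did not overlap with the 3M mice in Mx1 and Xaf1, higher at 18M (5.26% against 9.24% of all), and in Ifit1, Ifit2, Irgm1 and Ifi27, lower at 18M (10.5% against 10.2% of all). Both shares lie near or below those of all genes.

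A single testis stood out. Mouse 6M-3 had the highest value of the 12 testes in 16 of 38 members (42.1%), while it was highest in 12.8% of all genes, and its median deviation from the mean of each gene was 0.33 on the scale of log2(CPM + 0.1), against 0.0071 over all genes. The 16 were Irf7, Stat2, Dhx58, Oas2, Oasl1, Oasl2, Ifit3, Gbp2, Gbp3, Irgm1, Ifitm2, Ifitm3, Bst2, Isg15, Ifi27 and Ifi35, which include members of every role. The lowest medians were in mouse 18M-2, at -0.24, which was lowest in 8 of 38 members, against 6.32% of all genes. Markers of some cell types, but not of all, were also at an extreme in these mice. In mouse 6M-3 the 5 pan-leukocyte markers summed to 11.7 CPM, the 7 Leydig cell markers to 1322 and the 7 Sertoli cell markers to 1191, each sum the highest of the 12 testes, while spermatid markers were lowest at 12800 CPM. Gene by gene, 6 of the 7 Sertoli cell markers were highest in that mouse, but 2 of the 5 pan-leukocyte and 2 of the 7 Leydig cell markers. In the 11 others the sums were 6.86 to 9.7, 550 to 1045 and 895 to 968 CPM. Insl3 made up 64.9% of the Leydig cell sum. Without it the sum was 386 CPM in mouse 6M-3, inside the 156.5 to 454 CPM of the others. Without their top genes Laptm5 and Clu, the pan-leukocyte and Sertoli cell sums were still highest in that mouse, at 6.78 and 267.9 CPM. Of the 13 macrophage markers 8 were highest in mouse 6M-3, among them Adgre1, Csf1r and the 3 C1q genes, and 6 were lowest in mouse 18M-2. Their sum without Aif1 was 90.0 CPM in mouse 6M-3 and 57.1 to 83.4 CPM in the others, 61.2 in mouse 18M-2. With Aif1, which made up 81.2% of the full sum over the testes, it was 377 CPM in mouse 6M-3, inside the range of 349.9 to 418. Of the 7 T cell and 6 B and plasma cell markers, 0 were highest in mouse 6M-3. In mouse 18M-2 all 5 peritubular myoid markers were lowest, but 0 of the 5 pan-leukocyte, 0 of the 7 Sertoli cell and 2 of the 7 Leydig cell markers. The part of these cell types in the values of the members was not tested.

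**Figure D5:**
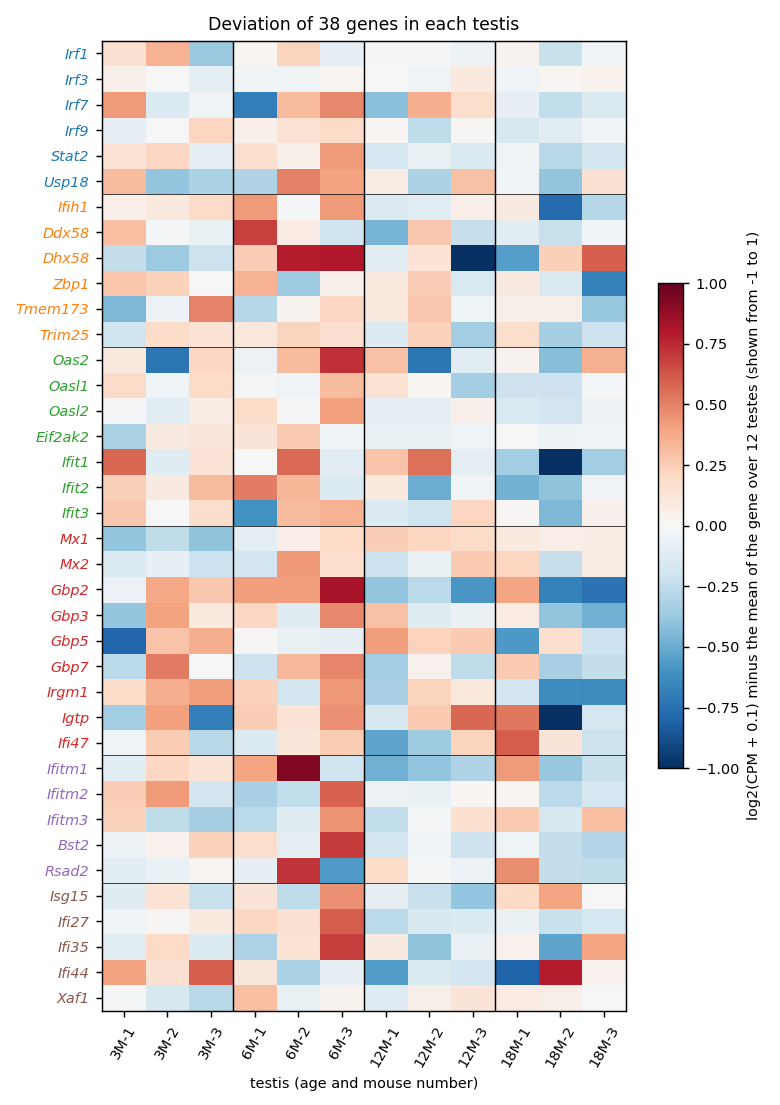
Heat map of 38 genes (ordered by role) in 12 testes, as log2(CPM + 0.1) minus the mean of the gene over the testes, with colours shown from -1 to 1 and lines between ages. The column of mouse 6M-3 is mostly red, with a median of 0.33, and that of mouse 18M-2 mostly blue, with a median of -0.24.

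Interferon genes themselves were hardly detected. Of 8 interferon genes 1, Ifnk, had enough reads to be tested, Ifnb1 had 0 reads in every library, and Ifng had 2 reads in all. Ifnk made up 83.1% of the summed CPM of the list and was at 2.88 and 3.04 CPM in mice 18M-1 and 18M-3, at 0 in mouse 18M-2 and at no more than 0.768 CPM in the younger mice (slope 0.26 ± 0.09, SE, adjusted p = 0.224). Ifnk passed the filter on low counts only through mice 6M-1, 18M-1 and 18M-3, where it was high, so nothing is read from its slope. Mice 18M-1 and 18M-3 had median deviations of 0.032 and -0.099 over the members. The next gene by FPKM, Ifnl3, averaged 0.0702 FPKM. Of 9 receptor and kinase genes, 6 had negative slopes and 0 were called. At an unadjusted p 2 passed, named after their values were seen, which were Jak2 and Tyk2 at -0.0264 and -0.0116 log2 units per month. Of all genes 8.2% fell at that p, and 2 of 9 is a small count. The most abundant were Ifngr2, at 10.8 FPKM with a slope of 0.0024 ± 0.00352, and Jak1, at 5.77 FPKM with a slope of -0.0253 ± 0.0123 (SE).

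Among 17 other sensors and adaptors 13 slopes were negative and 1 gene was called (0.171% of all genes and loci were), Ifi204, a DNA sensor of the p200 family. It was at 0.897, 0.825 and 0.938 CPM at 3M, 0.473, 0.713 and 0.597 at 6M, 0.39, 0.561 and 0.427 at 12M, and 0.371, 0.265 and 0.222 at 18M. Every 3M mouse was above all older mice and every 18M mouse below all younger ones, with a slope of -0.102 ± 0.0155 (SE, adjusted p = 0.0242). The call was lost, with adjusted p up to 0.104, on leaving out mouse 3M-1, 3M-2, 3M-3, 6M-2, 12M-1, 18M-2 or 18M-3 in turn, and the slope stayed between -0.113 and -0.093. The most abundant of the list, Riok3 (44.8 FPKM) and the adaptor Myd88 (6.48 FPKM), had slopes of -0.0025 ± 0.00286 and -0.0063 ± 0.00373 (SE). Of 9 kinases and interferon regulatory factors 6 had negative slopes and 0 were called, with slopes of 0.015 ± 0.00727 for Irf2 (6.96 FPKM) and -0.004 ± 0.00391 (SE) for Tank (6.29 FPKM). Of 46 other interferon-stimulated genes with enough reads 32 had negative slopes, and 0 were called. At an unadjusted p 3 of them fell (8.2% of all genes did) and 1 rose (7.16% of all did). The most abundant were Isg20, an exonuclease, at 42.6 FPKM with a slope of 0.0115 ± 0.00433, and the ligase Herc6, at 8.72 FPKM with a slope of -0.0086 ± 0.00416 (SE). The markers of Leydig cells had 6 negative slopes and 2 called genes of 7, where 0.171% of all genes and loci were called. These were Cyp11a1 at -0.108 ± 0.0134 and Cyp17a1 at -0.0986 ± 0.00779 log2 units per month (SE, adjusted p = 0.0053 and 1.25e-04). The paper had already listed both as decreasing with age in these data. Macrophage markers had 12 negative slopes of 13 with 0 called, and T cell markers 5 positive slopes of 5 with 0 called. At an unadjusted p 1 macrophage marker fell and 1 rose, and 2 T cell markers rose, where 15.4% of all genes passed. The part of these cells in the slopes of the members was not tested.

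The slopes were set beside the promoter matches as a description. The 17 tested members with an ISRE core had 14 negative slopes and a median of -0.0207 log2 units per month, and the 13 tested members with a promoter at hand and no ISRE core had 10 negative slopes and a median of -0.0145. Isg15, with 3 overlapping ISRE matches in the stretch shown above, had a slope of 0.0108 ± 0.0206, whereas Irgm1, with 2, had -0.0557 ± 0.0141, and Irf1, with a GAS match alone, -0.0104 ± 0.00987 (SE). The positive slopes among members with an ISRE core were those of Isg15, Ifitm3 (0.0127 ± 0.0131) and Rsad2 (0.0021 ± 0.0313), each smaller than its SE. No difference in direction between members with the same core is read from them.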

How the data were processed

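Total RNA of 12 testes, 3 at each of 4 ages, was sequenced in paired-end, unstranded form. HISAT2 on mm10 was the authors' aligner, and StringTie 1.3.3b gave the transcripts and their abundance. The deposited table lists 71967 transcripts, each with its estimated count and FPKM in every library, and the assemblies give the coverage of each exon. The deposited estimated counts are mean coverage times transcript length over a read length of 101, rounded up by the authors to whole numbers. The deposited FPKM values are per transcript length and library fragments, with no scaling between libraries by the authors, and equalled those of the assemblies in 912 of 912 values compared.

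Groups and mouse numbers came from the labels. Estimated counts were summed per gene over transcripts of class =, c, j or o with the gene's symbol, and over loci otherwise, and the quasi-likelihood test of edgeR 4.0.16 (R 4.3.3) was run after filterByExpr and TMM scaling, with Benjamini-Hochberg adjustment across every gene and locus that passed. A pairwise fit held the libraries of its own ages, and the slope and the test of any difference held all 12. A call was an adjusted p up to 0.05, plus a log2 difference of at least 1 in size in pairwise tests. CPM values use the same normalization. Named are all 40 members, the genes of 5 pathway lists called in the slope test or between 3M and 18M, and the 2 most abundant genes of each list. A gene of the lists is not reported here. Members and lists were chosen with earlier results of these data known. Exons were set beside GENCODE vM21, and promoters were those of RefSeq on GRCm38.p6, at hand for 32 members. The scripts were checked on simulated counts. Alternatives were library size alone, DESeq2 1.42.0 size factors or test, other filters, reference-matching transcripts alone, every class, limma 3.58.1 on log2(FPKM + 0.1), unadjusted p, no fold limit, log2 of age, all 12 libraries in a pairwise fit, the mouse number as a block, and each mouse left out. Counting Xaf1 and Ddx58 without neighbouring exons, and 12M and 18M against 3M and 6M, were added after seeing the data. Other steps were run in Python 3.11.15 (numpy 2.4.6, pandas 2.3.3, with figures by matplotlib 3.10.9). Intervals from sequencing depth were not drawn, since the counts are estimates.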

Additional observations from a re-analysis of the deposited data

How the results depend on the processing

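Depth limited the weakest members, with 0 to 24 reads a library in Oas1a, Oas3, Ifit1 and Isg15. The slopes of the 8 members at an unadjusted p and of Ifi204 kept their sign under each alternative that gave a value. The lean of the members from 12M to 18M turned without mouse 18M-2, to 21 higher and 18 lower with a median of 0.024 in place of -0.034. DESeq2 called 1 member in the slope (Irgm1) and 1 in the test of any difference (Ifi27), in place of 0. At an unadjusted p, with the fold limit kept between ages, members passing were 8 in the slope, 5 for any difference, 2 between 6M and 12M and 1 between 12M and 18M, in place of 0. On leaving out each mouse, members called between 3M and 6M ranged from 0 to 1 (Dhx58, without mouse 6M-1), and members lower at 6M from 6 to 16. Members higher at 12M than at 6M were 4 to 10 in place of 6. The counts of members lower or falling in the other comparisons kept within 1.5 times of their values. Calls over all genes moved more. The slope had 43, but 564 with DESeq2, 11 with reference-matching transcripts alone, 69 between both younger and both older ages, and 13 to 116 on leaving out a mouse. Between 3M and 18M there were 13, but 77 with DESeq2, and 640 in place of 20 for any difference. The mouse number as a block left 0 members called in each comparison and moved the calls over all genes to 22 in the slope and 0 between 3M and 18M, and the adjusted p of Ifi204 to 0.0651 (0.0914 between both younger and both older ages). Same-numbered mice correlated by -0.0385 to 0.0699 in their deviations and 6 of 12 correlated best with their own number, so the numbers were not taken to pair mice.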
